A study of Mus musculus with 6 samples.

Results

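Foxc1, Irs1 and Igf1r are a transcription factor gene, an adaptor gene and a receptor gene that the study links in 1 pathway, with Foxc1 placed upstream of insulin and insulin-like growth factor (IGF) signalling. The members were taken by gene symbol, 3 of 33641 symbols in the deposited table, with 8 of its 105129 transcript rows: 1 row each for Foxc1 and Irs1 and 6 for Igf1r. RNA-seq with poly-A selection and a stranded kit was run on quadriceps taken from male littermates of heterozygous crosses at 4 months (about 16 weeks). The tissue was collected near ZT4, where ZT counts hours from lights on, and flash-frozen. In 3 libraries the mice carried on both chromosomes a glucocorticoid receptor allele modelled on human rs6190 (homozygous), and in the other 3 they carried only the reference allele (WT). The labels name no strain and do not say that each library is a separate animal, so p-values measure the spread between these libraries. The comparison asks whether the 3 genes differ in abundance with the allele.

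Foxc1 belongs to the forkhead family of DNA-binding proteins and is known for its part in the development of blood vessels, mesenchyme and the eye. Igf1r encodes the IGF-1 receptor, a tyrosine kinase at the cell surface that binds IGF-1 and IGF-2. Activated IGF-1 and insulin receptors phosphorylate insulin receptor substrate proteins, among them the one encoded by Irs1, which recruit phosphoinositide 3-kinase and so start signalling through Akt. In skeletal muscle this route promotes protein synthesis and glucose uptake.

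On GRCm38 (GENCODE M21), Foxc1 lies on chromosome 13 from 31806633 to 31812476 on the plus strand, in 1 exon with 1659 coding bases (31807208 to 31808866). Irs1 lies on chromosome 1 from 82233101 to 82291416 on the minus strand, in 2 exons. Its 3693 coding bases are all in the first exon, and the last exon, 82233101 to 82237604, is untranslated. Igf1r lies on chromosome 7 from 67952827 to 68233668 on the plus strand, with 21 exons and 4107 coding bases. The sequence before each start site is shown because the 3 genes were all higher in the homozygous libraries and a factor gene is placed above the other members. It is taken from RefSeq on GRCm38.p6, where all 3 symbols matched, and stops before the annotated transcripts. Capitals mark CpG dinucleotides, and each is read 5′ to 3′ on the gene's own strand.
Foxc1, chr13:31806396-31806632, plus strand: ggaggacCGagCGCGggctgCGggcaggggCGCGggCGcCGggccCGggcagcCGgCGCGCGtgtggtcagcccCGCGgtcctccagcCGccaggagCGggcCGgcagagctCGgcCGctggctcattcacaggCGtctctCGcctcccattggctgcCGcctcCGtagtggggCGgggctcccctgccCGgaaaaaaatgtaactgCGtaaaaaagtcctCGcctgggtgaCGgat
Irs1, chr1:82291440-82291689, minus strand: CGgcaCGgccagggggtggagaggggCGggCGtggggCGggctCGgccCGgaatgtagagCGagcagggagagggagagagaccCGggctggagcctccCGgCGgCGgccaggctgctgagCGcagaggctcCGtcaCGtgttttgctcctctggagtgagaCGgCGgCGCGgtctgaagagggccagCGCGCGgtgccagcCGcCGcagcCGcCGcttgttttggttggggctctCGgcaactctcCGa
Igf1r, chr7:67952007-67952256, plus strand: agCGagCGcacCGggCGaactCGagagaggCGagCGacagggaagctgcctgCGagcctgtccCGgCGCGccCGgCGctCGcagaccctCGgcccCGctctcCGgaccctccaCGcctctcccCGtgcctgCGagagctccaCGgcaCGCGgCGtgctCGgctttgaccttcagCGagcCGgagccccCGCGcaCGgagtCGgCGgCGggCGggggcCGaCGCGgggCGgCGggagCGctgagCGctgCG

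All 3 promoters are rich in G and C. Over the full window of 300 bases (250 before and 50 after the start site), GC content was 67.3% for Foxc1, 71.3% for Irs1 and 76.0% for Igf1r, against a median of 52.7% over 32841 promoters of the same length. CpG dinucleotides numbered 32, 28 and 48, against a median of 7. The forkhead core GTAAACA, found in 3.65% of all these promoters on either strand, and the variant GTAAATA, found in 3.04%, had 0 matches in the 3 windows. The hexamer AGAACA of the glucocorticoid receptor site, found in 19.0%, also had 0 matches, as did the full palindromic glucocorticoid response element, AGAACA and TGTTCT spaced by 3 bases, which contains the hexamer and is found in 0.00913%. These counts describe the letters of these windows only.

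The 6 libraries held an estimated 15.7 to 21.7 M fragments each, and the summed level of 8 skeletal muscle markers was 47775 to 78952 TPM (a level normalised for transcript length and library total). WT replicate 3 stood apart in composition, and homozygous replicate 2 in slow-fibre genes. The slow-fibre score (mean log2(TPM + 1) of 11 genes) was 3.41 in the first, 8.87 in the second and 5.78 to 6.79 in the other 4, and in WT replicate 3 the median log2 deviation from the mean of the 6 libraries differed by -0.42 between genes of 4000 nt and over and genes under 1500 nt. In the other 5 libraries this difference between long and short transcripts was -0.0039 to 0.17. Mitochondrial transcripts made up 14.3% of TPM in WT replicate 3 and 33.9% in WT replicate 2, against 20.9% to 27.3% in the remaining libraries. Nr3c1, the receptor gene that carries the allele, was at 19.5 to 20.01 TPM in homozygous and 8.07 to 14.8 TPM in WT libraries, which does not check the genotype. The median tested gene was higher in the homozygous libraries, by 0.20 in log2 difference, and each member is set against this median below. TPM sums to the same total in every library, so this is not a rise of all genes together. No gene passed the test over all genes: limma called 0 of 15627 (0%) at an adjusted p of 0.05, and voom called 0. At an unadjusted p of 0.05, 2979 genes were higher (19.1%) and 99 lower (0.634%) in limma. This split depended on scaling, with 639 higher and 570 lower after quantile normalization, 450 and 1307 after median centring and 711 and 828 with the trend on transcript length removed.

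Foxc1 was the member with the largest relative difference and the lowest level. Its level was 0.686, 0.892 and 0.860 TPM in homozygous replicates 1, 2 and 3, and 0.188, 0.160 and 0.0983 TPM in WT replicates 1, 2 and 3. Every homozygous library was above every WT library, as in 28.8% of tested genes, and the lowest homozygous value was 3.66 times the highest WT value. Mean levels were 0.813 ± 0.111 TPM and 0.148 ± 0.0457 TPM (SD, n = 3 each), a ratio of 5.47, or 4.68 without WT replicate 3. On the log2(TPM + 1) scale, which compresses low levels, the difference was 0.66 (95% interval 0.40 to 0.92), or 0.45 above the median of all genes, and 5.45% of tested genes had a difference at least as high. The difference was above 0 for all 3 members and for 81.7% of tested genes. The difference did not pass over all genes (limma, unadjusted p 0.000438, adjusted p 0.222). The exact permutation test of the means gave p = 0.1, two-sided, the smallest that 3 against 3 allows. In whole muscle, fewer cells of a type and less RNA per cell cannot be told apart.

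**Figure D1:**
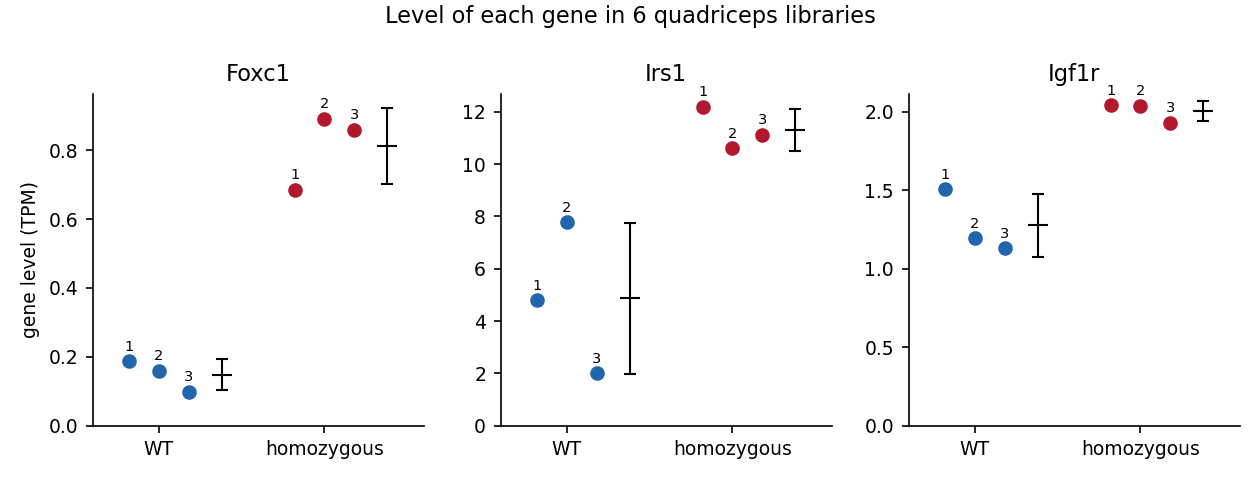
Level in TPM of Foxc1, Irs1 and Igf1r in the WT (blue) and homozygous (red) libraries. Points are libraries numbered by replicate, and the bars give mean and SD (n = 3). The groups do not overlap for any of the 3 genes, and the Irs1 WT values run from 2.01 to 7.77 TPM.

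The values of Foxc1 rest on few fragments. The table lists an older version of its only transcript than GENCODE M21, whose model is 5844 nt long, while RefSeq gives the gene 3990 nt. At the RefSeq length the levels correspond to about 48, 48 and 47 fragments under the homozygous genotype against 12, 9 and 6 in WT. At the GENCODE length they correspond to about 72, 72 and 70 against 18, 13 and 9. Because the same length is used for every library, either one must give about the same ratio between groups. Summed fragments were 143 against 27 or 214 against 40. Exact Poisson 95% intervals at the RefSeq length, which cover counting error only, had lower limits of 0.502 TPM or more in the homozygous libraries and upper limits of 0.326 TPM or less in the WT libraries.

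The difference was above 0 in 15 of the forkhead genes tested, a share close to the 81.7% of all genes. Of 44 listed forkhead genes, 18 passed the filter of a mean of 0.1 TPM over all 6 libraries. Foxc1 was among them, with both group means above the filter. Foxd2 passed only through its homozygous values (0.200, 0.232 and 0.171 TPM against 0.0244, 0.0828 and 0 TPM). In the other 17, all homozygous libraries were above all WT libraries in 8, Foxc1 included, and below in 0, against 28.8% and 0.902% of all tested genes. Among the 26 untested genes homozygous libraries were above WT libraries in 3 and below in 1, Foxf1 (0.0480, 0.0625 and 0.0308 TPM against 0.131, 0.119 and 0.110 TPM). No forkhead gene had an adjusted p under 0.05 (limma). The median log2 difference of the 18 was 0.29, against 0.20 for all genes, and Foxo6, Foxp2 and Foxs1 had negative differences of -0.25, -0.13 and -0.15. The insulin-responsive factor gene Foxo1 was 4.95, 7.39 and 7.14 TPM in homozygous and 2.16, 3.03 and 2.95 TPM in WT libraries, a log2 difference of 1.01 (limma, adjusted p 0.222). Foxn3, which encodes a transcriptional repressor, had a log2 difference of 1.41, and Foxo4 and Foxp1 had 0.42 and 0.48.

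The forkhead genes closest to Foxc1 in sequence or position had low levels. Foxc2, its closest paralog, was 0.106, 0.0275 and 0 TPM in homozygous and 0.0693, 0.0262 and 0.0242 TPM in WT libraries, with overlapping groups. Foxf2, which lies 175 kb away, was 0.0417, 0.160 and 0.118 TPM against 0.0718, 0.127 and 0 TPM, also overlapping. Foxq1 was 0.0652, 0 and 0.0278 TPM in homozygous libraries, and every WT library listed it at 0. Gmds, a GDP-mannose dehydratase gene on the other strand that ends 7.10 kb from Foxc1, was 1.17, 0.739 and 0.999 TPM in homozygous and 0.466, 0.615 and 0.406 TPM in WT libraries, with homozygous libraries above. Foxc1 was above Foxc2, Foxf2 and Foxq1 in each of the 6 libraries.

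Genes known to act with or below Foxc factors had a median difference about equal to that of all genes. All 12 were tested, 1 of them (Hey2) passing the filter only through its homozygous values. In 3 the homozygous libraries were above WT libraries and in 0 below, against 28.8% and 0.902% of all tested genes, and their median log2 difference was 0.21. Hey1, a Notch target gene, was 2.53, 3.02 and 2.64 TPM in homozygous and 1.44, 1.84 and 1.07 TPM in WT libraries. For Dll4, a Notch ligand gene of arteries and capillaries, the groups overlapped (3.33, 3.01 and 1.99 TPM against 2.0002, 1.42 and 1.30 TPM). Neither passed over all genes (limma, adjusted p 0.222 for Hey1 and 0.232 for Dll4).

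Igf1r, the receptor, differed least of the 3 genes and varied least between libraries. Summed over its rows it was 2.04, 2.04 and 1.93 TPM in homozygous and 1.51, 1.19 and 1.13 TPM in WT libraries. The groups did not overlap. Group means came to 2.003 ± 0.0639 TPM in homozygous and 1.28 ± 0.201 TPM in WT libraries (SD, n = 3 each), a ratio of 1.57. The log2 difference was 0.40 (95% interval 0.06 to 0.74; limma, unadjusted p 0.0259, adjusted p 0.232). This was 0.20 above the median of all genes, and 22.3% of tested genes had a difference at least as high. With quantile normalization the log2 difference was 0.15, with median centring 0.10 and with the trend of level on transcript length removed 0.05 (limma, adjusted p 0.910). The exact permutation test gave p = 0.1.

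The Igf1r row whose groups did not overlap was its coding transcript. That row (ENSMUST00000005671.9, 11409 nt) was 1.84, 1.71 and 1.73 TPM in homozygous and 1.20, 0.912 and 0.793 TPM in WT libraries, with a log2 difference of 0.49 (limma over isoforms, adjusted p 0.460). Its log2 difference was 0.25 with quantile normalization and 0.19 with the trend on transcript length removed (limma over isoforms, adjusted p 0.770 and 0.795). The other 5 rows are annotated as retained introns, and 1 of them was listed at 0 in every library. Summed, they were 0.204, 0.326 and 0.203 TPM in homozygous and 0.304, 0.282 and 0.337 TPM in WT libraries, with overlapping groups (exact permutation p = 0.3). The coding row made up 90.03%, 84.0% and 89.5% of Igf1r TPM in homozygous and 79.8%, 76.4% and 70.2% in WT libraries. The groups did not overlap in this share, with means of 87.8 ± 3.34% and 75.4 ± 4.87% (SD, n = 3 each, exact permutation p = 0.1). The rows other than the coding row are shorter (733 to 2668 nt), and each was at 0.208 TPM or less. The part of transcript length in this share was not tested. Of the 8 member rows 4 passed the filter, and 0 had an adjusted p under 0.05, against 3 of 47795 isoforms (0.00628%). At an unadjusted p of 0.05, 3 of the 4 were higher (Foxc1, Irs1 and the coding row of Igf1r) and 0 lower, against 9.2% and 1.34% of isoforms. In these 3 rows every homozygous library was above every WT library, against 17.7% of isoforms.

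Of the 3 other listed receptors, Insr and Igf2r were tested. Insr, the insulin receptor gene, was 8.73, 10.1 and 9.24 TPM in homozygous and 7.42, 6.05 and 4.10 TPM in WT libraries, so its level was several times that of Igf1r in every library. Igf2r, which encodes the mannose 6-phosphate receptor that clears IGF-2, was 9.45, 9.63 and 7.96 TPM against 6.06, 5.98 and 5.68 TPM. In both genes every homozygous library was above every WT library, with log2 differences of 0.62 and 0.53 (limma, adjusted p 0.222 each). Insrr, the insulin receptor-related receptor gene, was below the filter, at 0.0153 to 0.0239 TPM in homozygous and 0.012 to 0.112 TPM in WT libraries, with overlapping groups. The ratio of Igf1r to Insr within a library does not depend on how that library was scaled. It was 0.234, 0.202 and 0.209 in homozygous and 0.203, 0.197 and 0.276 in WT libraries. The groups overlapped, and the difference in mean log2 ratio was -0.055 (exact permutation p = 0.9). Without WT replicate 3 it was 0.10, and between the most abundant row of each gene 0.21.

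Of the ligands and binding proteins, 12 were listed and 8 tested, and their median log2 difference was -0.035, below that of all genes. Igf1 was 6.95, 10.0001 and 11.2 TPM in homozygous and 4.41, 12.3 and 11.01 TPM in WT libraries, and Igf2 was 7.32, 6.16 and 5.43 TPM against 5.13, 6.16 and 11.5 TPM. The groups overlapped for both growth factors. Igfbp3, the main carrier of IGF in blood, was 6.71, 7.56 and 7.32 TPM against 5.14, 5.098 and 5.27 TPM, and was the gene of this list whose groups did not overlap. Igfbp5, a binding protein gene of muscle, was 78.0, 53.2 and 71.8 TPM against 133.7, 105 and 66.7 TPM, with overlapping groups.

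Irs1, the adaptor, had the largest log2(TPM + 1) difference of the 3 genes and the widest spread within WT. It was 12.2, 10.6 and 11.1 TPM in homozygous and 4.81, 7.77 and 2.01 TPM in WT libraries. The groups did not overlap, but WT replicates 2 and 3 lay far apart. The coefficient of variation was 7.13% in homozygous and 59.3% in WT libraries. Irs1 averaged 11.3 ± 0.806 TPM over the homozygous libraries, against 4.86 ± 2.88 TPM over WT (SD, n = 3 each), a ratio of 2.32, or 1.80 without WT replicate 3. The log2 difference was 1.20 (95% interval 0.38 to 2.01; limma, unadjusted p 0.00977, adjusted p 0.222), or 0.99 above the median of all genes, and 0.730% of tested genes had a difference at least as high. Without WT replicate 3 the log2 difference was 0.78, and the exact permutation test over all 6 libraries gave p = 0.1.

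A second gene is annotated over the last exon of Irs1, and the level given for Irs1 may depend on it. Gm9747, a predicted gene of 2822 nt on the plus strand (chromosome 1, 82233112 to 82235933), lies with all its bases inside that exon of 4504 nt, on the opposite strand. The libraries were stranded, but the sources used here do not say whether counting used the strand. Without it, reads from the 2822 nt that the genes share cannot be told apart. The first exon of Irs1, which holds all its coding bases, and the rest of its last exon lie outside that overlap. Gm9747 was 19.7, 20.4 and 20.7 TPM in homozygous and 14.3, 24.4 and 28.5 TPM in WT libraries, and the groups overlapped (log2 difference -0.085; limma, adjusted p 0.846). It was above Irs1 in every library. The ratio of Gm9747 to Irs1 was 1.62, 1.92 and 1.86 in homozygous and 2.97, 3.13 and 14.2 in WT libraries, with all WT libraries above all homozygous libraries.

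Counting the fragments of both genes towards Irs1 made its difference smaller. Of the estimated fragments on the pair, Gm9747 held 32.4%, 36.3% and 35.5% in homozygous and 46.8%, 48.2% and 80.9% in WT libraries. Irs1 with Gm9747 added was 18.04, 16.7 and 17.2 TPM in homozygous and 9.04, 15.004 and 10.5 TPM in WT libraries. The groups still did not overlap, and the ratio of means was 1.503 in place of 2.32. The log2 difference was 0.58 (95% interval 0.14 to 1.01; limma, adjusted p 0.222), or 0.37 above the median of all genes. This alternative was chosen after seeing the data, and the table does not show which of the assignments is right.

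**Figure D2:**
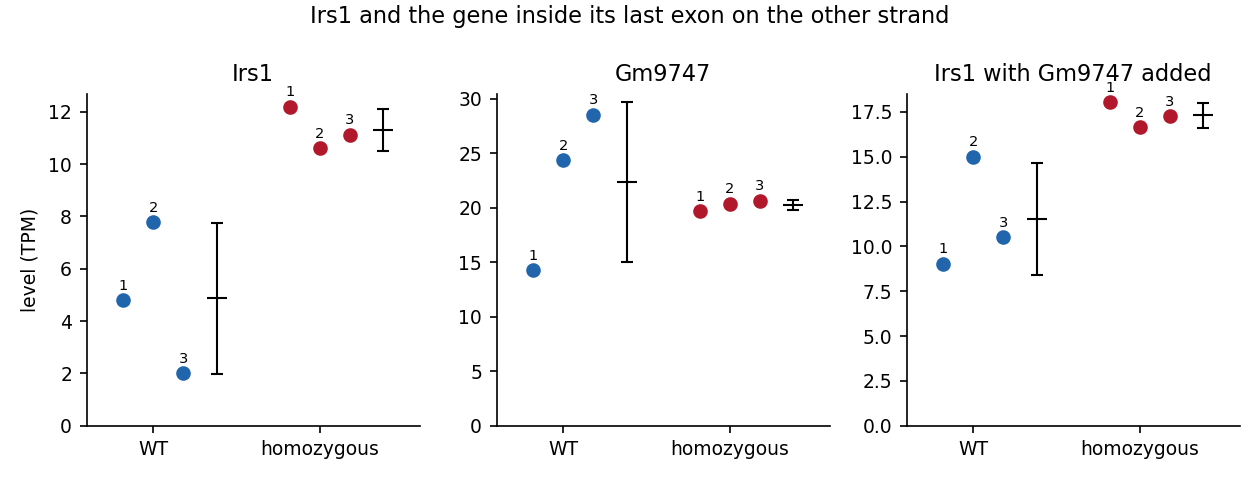
Level in TPM of Irs1, of Gm9747 and of Irs1 with the fragments of Gm9747 added, in WT (blue) and homozygous (red) libraries; points are libraries numbered by replicate and bars give mean and SD (n = 3). WT replicate 3 is lowest for Irs1 at 2.01 TPM and highest for Gm9747 at 28.5 TPM.

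Irs2, which encodes the other main substrate of the insulin receptor in muscle, had much the same pattern as Irs1. It was 12.5, 9.71 and 8.995 TPM in homozygous and 5.34, 6.26 and 2.47 TPM in WT libraries, with no overlap and a log2 difference of 1.06 (limma, adjusted p 0.222). The ratio of Irs1 to Irs2 was 0.975, 1.09 and 1.24 in homozygous and 0.900, 1.24 and 0.813 in WT libraries. These overlapped, and the mean log2 ratio differed by 0.18 (exact permutation p = 0.5), by 0.052 without WT replicate 3 and by 0.36 without WT replicate 2. With Gm9747 added to Irs1 that difference was -0.62 (exact permutation p = 0.3). The ratio of Irs1 to Igf1r was 5.97, 5.21 and 5.76 in homozygous and 3.19, 6.51 and 1.78 in WT libraries. Its mean log2 ratio differed by 0.76 (exact permutation p = 0.4), and by -0.040 with Gm9747 added (exact permutation p = 0.8). Without WT replicate 3 it differed by 0.31 and without WT replicate 2 by 1.24.

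Adaptors as a group were near the level of all genes in their shift. Of 11 listed adaptors 10 were tested, and Irs3 was the 1 that passed the filter only through its homozygous values. In the other 9 the homozygous libraries were above WT libraries in 4, Irs1 included, and below in 0, against 28.8% and 0.902% of all tested genes. The median log2 difference of the 10 was 0.28. Gab1, a docking protein gene, was 5.28, 6.42 and 5.41 TPM in homozygous and 4.12, 3.49 and 2.77 TPM in WT libraries.

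The kinases and effectors downstream of the adaptors numbered 28, all tested. In 15 of them all homozygous libraries were above WT libraries and in 0 below, against 28.8% and 0.902% of all tested genes, and the median log2 difference was 0.29. Pik3r1, the regulatory subunit gene of phosphoinositide 3-kinase, was 7.15, 9.15 and 6.74 TPM against 4.42, 3.95 and 3.61 TPM. Tbc1d1, which encodes a Rab regulator of glucose transporter traffic, was 24.3, 43.5 and 50.8 TPM against 8.38, 10.5 and 17.4 TPM, a log2 difference of 1.63. Akt2 and the glucose transporter gene Slc2a4 had overlapping groups, at 112 to 131 against 82.1 to 120 TPM, and 200.3 to 250 against 196 to 264 TPM.

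Genes that restrain the receptor or adaptor numbered 18, all tested, and 0 passed over all genes (limma). In 14 of them all homozygous libraries were above WT libraries and in 0 below, against 28.8% and 0.902% of all tested genes, and the median log2 difference was 0.43, or 0.22 above all genes. Socs3, whose product targets insulin receptor substrates for degradation, was 19.03, 6.22 and 9.86 TPM in homozygous and 3.89, 1.71 and 0.677 TPM in WT libraries. Socs2, a feedback inhibitor gene of growth hormone signalling, was 54.0, 55.5 and 60.8 TPM against 30.9, 20.5 and 15.1 TPM. Trib3, an Akt inhibitor gene, was 1.07, 1.15 and 2.40 TPM against 0.508, 0.216 and 0.233 TPM. Over the 5 pathway lists together, 67 of 73 genes were tested, 38 had homozygous libraries above (Irs3 included) and 0 below, against the same 28.8% and 0.902%, and 0 passed over all genes (limma, smallest adjusted p 0.222). Without Irs1 and Igf1r, 36 of 65 tested genes had homozygous libraries above (Irs3 still included) and 0 below, and the median log2 difference of the lists was 0.35.

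**Figure D3:**
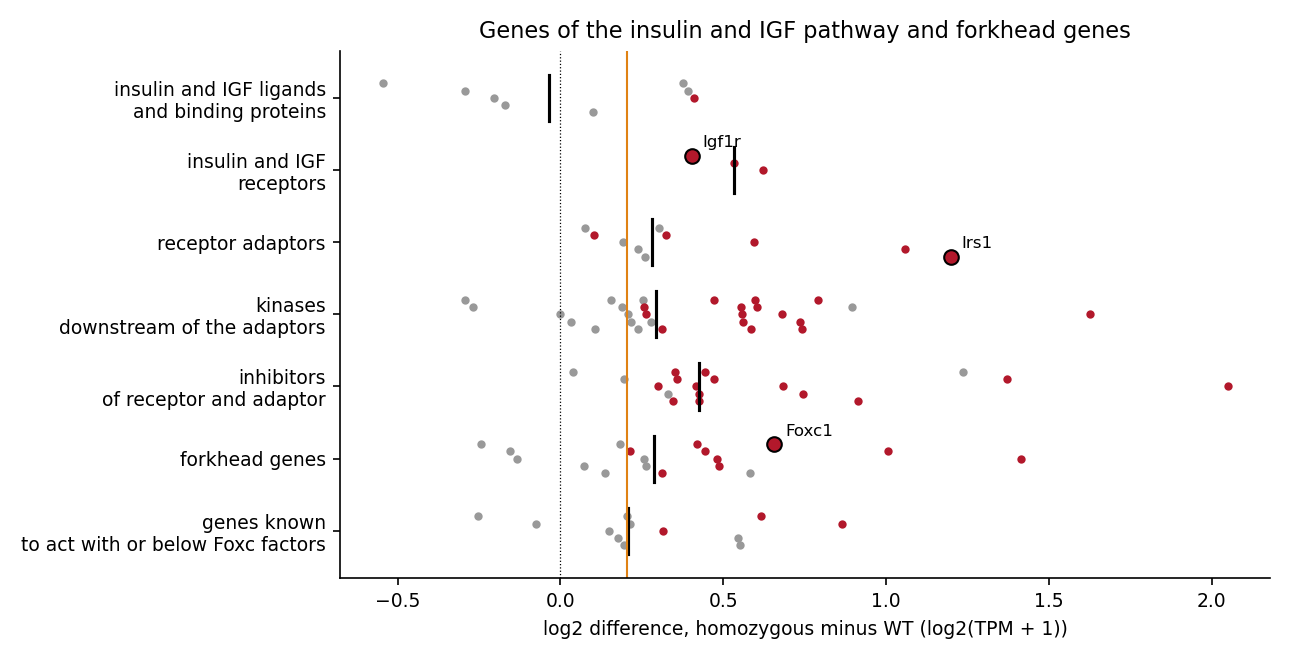
Log2 difference, homozygous minus WT, of each tested gene (points) by list; red points are genes with all homozygous libraries above all WT libraries, black ticks are list medians and the orange line is the median of all tested genes, 0.20. Irs1 lies at 1.20, Foxc1 at 0.66 and Igf1r at 0.40.

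Genes with a pattern most like each member over the 6 libraries were found by Pearson's r of log2(TPM + 1), among genes with a mean of at least 1 TPM. For Foxc1 these were Zfp951 (r = 0.997), Setd1b, Mcph1, Utp15 and Styx. For Irs1 they were Dld (r = 0.997), Skiv2l2, Ipmk, Zfp251 and Polr2b, and for Igf1r Ing5 (r = 0.997), Dnajc9, Gucd1, Myh1 and Smarcc2. Such likeness is common here, since the points share 2 genotype groups and the same libraries: 365, 528 and 303 of 11025 or 11026 genes had r above 0.95 with Foxc1, Irs1 and Igf1r.

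Around Irs1 and Igf1r, other genes within 200 kb had values of both kinds. Rhbdd1, a rhomboid protease gene 25.04 kb from Irs1, was 3.31, 3.43 and 3.45 TPM in homozygous and 2.97, 2.76 and 1.64 TPM in WT libraries, with no overlap. Col4a4, a basement membrane collagen gene 157 kb away, was at 0.0626 to 0.233 TPM with overlapping groups. Synm, the intermediate filament gene of synemin 193 kb from Igf1r, was 188, 162 and 178 TPM against 140, 130 and 102 TPM. Pgpep1l, 2.94 kb beyond Igf1r on the other strand, had overlapping groups, at 2.08 to 4.401 against 2.21 to 5.18 TPM.

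Summed markers of other cell types differed between genotypes to differing degrees, and their part in the results was not tested except where stated. Foxc1 is known from vascular, mural and connective tissue cells, and their summed marker levels differed less than Foxc1 did. The 8 endothelial markers summed to 87.8 to 104 TPM in homozygous and 70.6 to 92.1 TPM in WT libraries, the 8 mural cell markers to 112 to 119 against 72.7 to 97.7 TPM, and the 8 fibro-adipogenic progenitor markers to 229 to 265 against 138 to 307 TPM. None of these 24 markers was at 0 in all libraries. Of the fibro-adipogenic sum, Dcn alone was 123, 154 and 163 TPM in homozygous and 148, 181 and 53.0 TPM in WT libraries. Per 1000 TPM of endothelial markers, Foxc1 was 8.47 in homozygous and 1.87 in WT libraries on average, and per 1000 TPM of mural cell markers 7.01 and 1.65, with no overlap in either. Irs1 per 1000 TPM of endothelial markers was 118 and 63.1 on average, with overlapping groups, and Igf1r 20.8 and 16.1, with no overlap. Per 1000 TPM of mural cell markers Irs1 was 97.4 and 52.8 and Igf1r 17.3 and 14.5, with no overlap in either. Per 1000 TPM of fibro-adipogenic markers Foxc1 was 3.23 and 0.681 and Irs1 45.4 and 20.2, with no overlap in either. Igf1r per 1000 TPM of that list was 8.03 and 6.20, with overlapping groups.

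Larger shifts were present in Schwann cell markers and in slow-fibre genes. The 6 Schwann cell markers, all detected, summed to 77.3, 106 and 29.1 TPM in homozygous and 18.6, 25.3 and 16.2 TPM in WT libraries, a ratio of means of 3.54. The 11 slow-fibre genes summed to 1902 to 9714 TPM in homozygous and 245 to 1738 TPM in WT libraries, a ratio of 4.46. Homozygous replicate 2 stood apart at 9714 TPM, against 1902 and 2241 TPM in replicates 1 and 3. The ratio was 2.0003 without it and 6.75 without WT replicate 1. Per 1000 TPM of either list, Foxc1, Irs1 and Igf1r all had overlapping groups. On Schwann cell markers Foxc1 averaged 15.6 in homozygous and 7.49 in WT libraries, Irs1 213 and 230 and Igf1r 37.3 and 65.9. On slow-fibre genes Foxc1 averaged 0.279 and 0.217, Irs1 4.15 and 5.96 and Igf1r 0.714 and 2.18. Mean Irs1 and Igf1r were thus lower in homozygous libraries per 1000 TPM of either list, and mean Foxc1 was higher. With the slow-fibre score as a covariate the log2 differences were 0.57 for Foxc1, 0.72 for Irs1 and 0.32 for Igf1r (limma, adjusted p 0.823 each, unadjusted p 0.00682, 0.139 and 0.138).

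**Figure D4:**
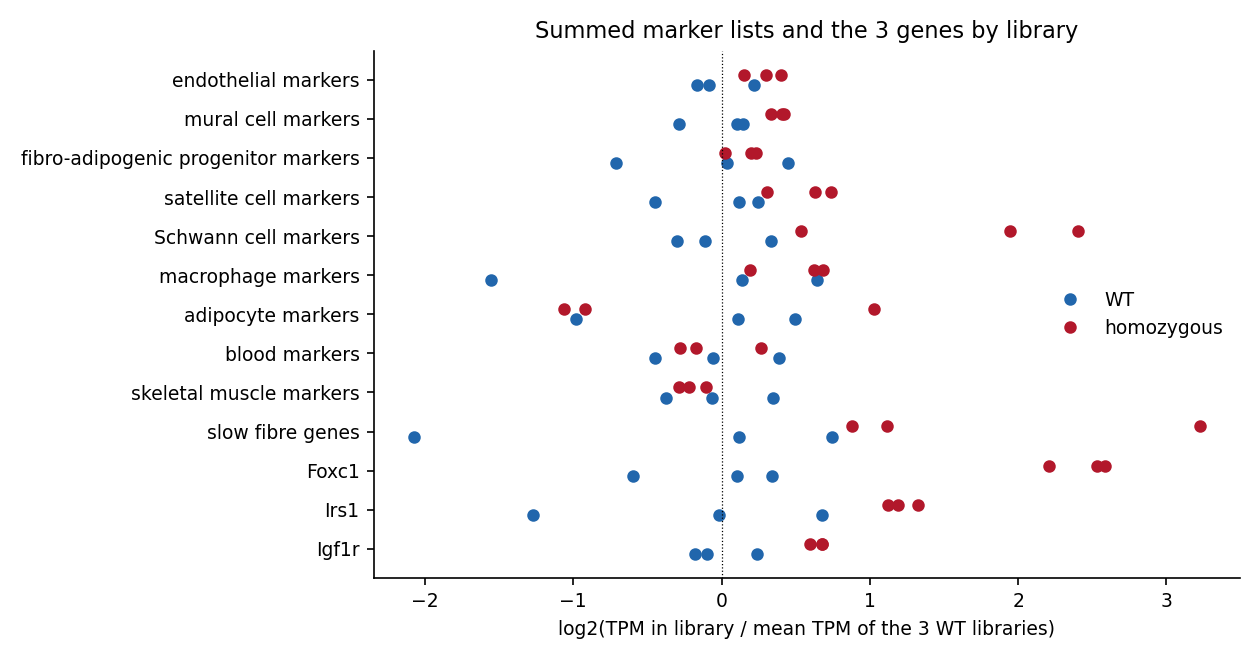
Level of each summed marker list and of the 3 genes in each library, as log2 of the ratio to the mean of the 3 WT libraries (blue WT, red homozygous). The 3 homozygous values of Foxc1 lie above 2, and those of the endothelial, mural and fibro-adipogenic lists below 1.

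The direction of all 3 genes was the same in each alternative run, and none of the 3 passed over all genes in any. The filters, the balanced replicate block and the single row of Foxc1 and Irs1 cannot move the difference, which leaves 14, 15 and 15 alternatives with another value for Foxc1, Irs1 and Igf1r. Foxc1 ran from 0.36 (median centring) to 2.32 (voom on estimated fragments) in log2 difference over 17 alternatives. Irs1 ran from 0.58 (Gm9747 added) to 1.56 (without WT replicate 2) over 19, and Igf1r from 0.05 (length trend removed) to 0.75 (voom) over 18. The Foxc1 values of 1.89 with a pseudocount of 0.1 and 2.32 with voom are larger because the pseudocount of 1 exceeds its level in every library.

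**Figure D5:**
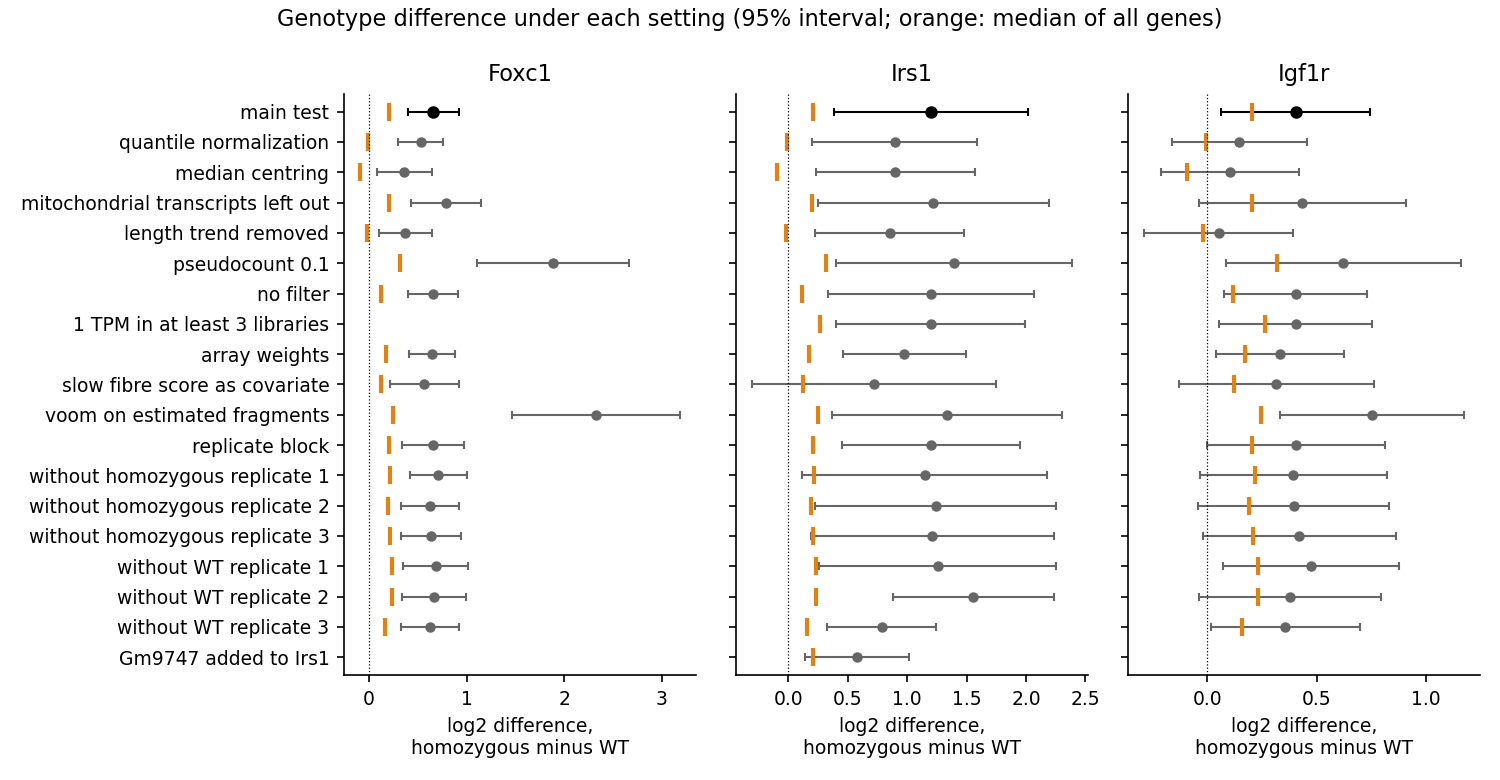
Log2 difference, homozygous minus WT, of Foxc1, Irs1 and Igf1r with its 95% interval in the main test (black) and under each alternative (grey); orange ticks mark the median of all tested genes under the same setting. The interval of Igf1r crosses 0 with quantile normalization, median centring and the length trend removed, among others, and that of Foxc1 stays above 0 in all settings shown.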

How the data were processed

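Expression was measured by RNA-seq in 6 quadriceps libraries, 3 homozygous and 3 WT, grouped by their titles. The authors deposited TPM per Ensembl transcript, per the file headers; FastQC, Trimmomatic, HISAT2, kallisto and mm10 are named without versions in the submitters' processing notes, with no annotation release. TPM carries no depth, so fragments were estimated from single-transcript genes (Foxc1 left out) of at least 1500 nt. Their low TPM was multiplied by length less an offset. For 73.0% to 76.6% of values the product was within 0.03 of whole multiples of 1 constant per library. Offset and constant were chosen to make this share largest. The 6% by chance for a constant fixed beforehand is therefore not the chance rate of the chosen one. The estimated fragments serve precision and 1 alternative only.

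TPM was summed per gene and tested as log2(TPM + 1) in limma 3.58.1 (R 4.3.3; trend, robust, genotype as the only term) over genes with a mean of at least 0.1 TPM, Benjamini-Hochberg adjusted, with 0.05 as the threshold. Single values were compared by two-sided exact permutation tests. Python 3.11.15, numpy 2.4.6 and pandas 2.3.3 were used for sums, ratios and sequences. On simulated data the test recovered 0%, 38.5% and 87.5% of 200 genes changed by 0.5, 1 and 2 on the log2 scale among 15627. The changed genes were drawn from those with a mean log2(TPM + 1) above 1 and were moved up or down at random. Foxc1 lies below that mean, so these shares do not cover it, and in the data most tested genes differed upward. The members and gene lists were chosen with earlier results of these data known. Named genes were the members, their family relatives and neighbours within 200 kb, up to 4 genes of a list with the smallest p, and the 5 most alike per member. Akt2, Slc2a4 and Foxp1 fall outside this rule and were chosen after their values were seen. Adipocyte, blood, macrophage and satellite cell markers summed to 6.05 to 25.7, 536 to 781, 31.5 to 44.5 and 12.6 to 17.01 TPM in homozygous and 6.39 to 17.8, 476 to 851, 9.38 to 43.1 and 7.48 to 12.05 TPM in WT libraries. Alternatives covered scaling, filter, pseudocount, weights, length, fibre score, voom, a replicate block and each library left out.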

Additional observations from a re-analysis of the deposited data

How the results depend on the processing

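Array weights gave 1 gene past the threshold in place of 0, the other settings with all 6 libraries gave 0, and there were 0 to 3 with 1 library left out (3 without homozygous replicate 1). The 3 isoforms were 9 with a filter of 1 TPM in 3 libraries, 6 with a pseudocount of 0.1, 16 with voom, and 0 with the replicate block, the slow-fibre covariate or no filter; leaving out 1 library gave 0 to 10 (10 without WT replicate 1). The cause was not tested, and no member row is among the 3.

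The difference in the log2 ratio of Igf1r to Insr changed sign to 0.21 between the most abundant rows and to 0.10 without WT replicate 3; leaving out 1 library gave -0.14 to 0.10. Leaving out 1 library gave 0.052 to 0.36 for Irs1 to Irs2 and 0.31 to 1.24 for Irs1 to Igf1r. These Irs1 differences changed sign to -0.62 and -0.040 with Gm9747 added, which was chosen after seeing the data. The directions of Foxc1, Irs1 and Igf1r were the same in the 14, 15 and 15 alternatives that gave another value; the filter of 1 TPM left Foxc1 untested. With the replicate number as a block the log2 differences stayed 0.66, 1.20 and 0.40 (limma, adjusted p 0.3, 0.3 and 0.309), and 0 genes passed. Deviations of same-numbered libraries correlated at -0.067, 0.055 and -0.022 across genes, so the numbers were not taken to pair the mice. Depth limits Foxc1 most, at about 6 to 12 fragments in the WT libraries at the RefSeq length and about 9 to 18 at the GENCODE length.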
